A study of Mus musculus with 35 samples.

Results

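Immediate early genes are switched on within minutes of a stimulus, without the need for new protein. The 10 followed here were Fos, Fosb, Jun, Junb, Egr1, Atf3, Ier2, Nr4a1, Dusp1 and Klf6, picked by gene symbol from the 57186 genes of a count table of mouse lung RNA and not by any measured value. All 10 passed the filter on low counts, which left 20606 genes to test. Growth factors, cytokines, cAMP, calcium and physical stress raise these genes through kinases that act on serum response factor and on CREB family proteins bound at their promoters. Their messages are short-lived, so they report recent events in a tissue, and the handling of an organ before RNA is fixed can raise them too. In lung they are known to respond to injury, stretch and inflammation.

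The libraries came from whole lungs of KO mice (RORaf/fIl7riCre) and of C mice (RORaf/f). Both genotypes carry a Rora gene with loxP sites, and in KO mice a Cre made from the Il7r locus acts in cells that express Il7r or descend from such cells. The label of the C mice names no Cre, so the loss of Rora and the presence of Cre cannot be told apart. KO and C lungs were taken 2, 5 or 7 days after naphthalene, a compound that injures the club cells of the airway, and KO and C lungs without naphthalene were taken under the same day labels. The study's text gives an age of 14 days and no separate age for each day label. The 12 groups held 3 libraries each except KO lungs at day 7 after naphthalene, which held 2, for 35 libraries in all. The labels number replicates without saying that each is a separate mouse, so p-values measure the spread between these libraries.

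The shallowest library held 10696690 counts, the median was 16.16 M and the deepest held 21.06 M. Levels are CPM, counts per 1 M after correction for library composition. The smallest count behind any value of the 10 genes was 45 reads, for Fosb. The 11 lung tissue markers were detected in every library, among them Sftpc at 4847 CPM or more and Ager at 1217 CPM or more. Rora itself had a median of 45.3 CPM over 17 KO lungs, against 42.7 CPM over 18 C lungs (lowest 25.2 and highest 64.0 CPM in KO lungs, 32.1 and 53.4 CPM in C lungs). A gene total over whole lung does not show whether the marked exons were cut in the cells that make Cre. Each library name carries a letter whose meaning the labels do not give. The letter was a for all lungs of day 2 after naphthalene, and k (4 libraries) or n (2 libraries) for untreated lungs of day 2. It was b (5 libraries) or i (1 library) for day 5 after naphthalene, f (4 libraries) or o (2 libraries) for untreated lungs of day 5, and p for all lungs of day 7. Treatment and letter therefore cannot be told apart at days 2 and 5, and no letter of those days holds both treated and untreated lungs. Replicate 1 of the untreated C lungs of day 5, a library of letter o, stood apart with 158.6 CPM of the microglial gene P2ry12, against at most 3.92 CPM in the other 34. Of the macrophage and microglia markers, Cx3cr1, Aif1 and Csf1r were also highest there, and Adgre1, Marco, Mrc1 and Chil3 were not.

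Promoters of 4 of the genes are shown because Nr4a1, Atf3 and Dusp1 carried the treatment differences described below and Fos is the archetype of the family. They are RefSeq sequences of 250 bases before to 50 bases after the gene start, in build GRCm38.p6, read 5′ to 3′ on the strand of the gene. Capitals mark TGACG or its reverse complement CGTCA, the core of the site that CREB and ATF proteins bind, including the full palindrome TGACGTCA in Dusp1.
Nr4a1, chr15:101266596-101266895, plus strand: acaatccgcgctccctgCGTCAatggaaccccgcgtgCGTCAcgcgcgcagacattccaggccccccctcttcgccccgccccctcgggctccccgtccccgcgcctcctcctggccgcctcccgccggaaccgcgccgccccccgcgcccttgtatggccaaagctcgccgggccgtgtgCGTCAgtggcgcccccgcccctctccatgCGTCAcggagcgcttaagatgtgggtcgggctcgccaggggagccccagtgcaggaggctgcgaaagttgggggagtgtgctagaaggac
Atf3, chr1:191183284-191183583, minus strand: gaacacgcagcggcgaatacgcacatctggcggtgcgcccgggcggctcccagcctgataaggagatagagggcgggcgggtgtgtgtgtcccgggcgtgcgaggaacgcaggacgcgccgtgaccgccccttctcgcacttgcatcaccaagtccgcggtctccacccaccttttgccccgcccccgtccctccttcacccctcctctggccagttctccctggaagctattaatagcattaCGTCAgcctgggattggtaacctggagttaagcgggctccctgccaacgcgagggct
Dusp1, chr17:26508423-26508722, minus strand: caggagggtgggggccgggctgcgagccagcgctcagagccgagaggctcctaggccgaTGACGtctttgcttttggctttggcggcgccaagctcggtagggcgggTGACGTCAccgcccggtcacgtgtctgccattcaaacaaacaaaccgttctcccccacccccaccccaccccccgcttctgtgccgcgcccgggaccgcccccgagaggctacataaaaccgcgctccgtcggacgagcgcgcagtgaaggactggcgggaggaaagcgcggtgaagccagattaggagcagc
Fos, chr12:85473640-85473939, plus strand: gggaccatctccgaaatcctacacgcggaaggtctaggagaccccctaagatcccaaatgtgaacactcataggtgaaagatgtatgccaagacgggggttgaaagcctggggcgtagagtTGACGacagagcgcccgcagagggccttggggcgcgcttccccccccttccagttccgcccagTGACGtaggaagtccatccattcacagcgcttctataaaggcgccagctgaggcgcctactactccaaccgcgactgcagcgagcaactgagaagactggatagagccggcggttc
The promoter table held 8 of the 10 genes, and Egr1 and Ier2 are named only. Of the 8, 6 carried TGACG on either strand. Across all 32851 promoters of the table the share was 20.8%. Nr4a1 carried 4 copies, with first letters at positions -233, -213, -69 and -40 from the start. Dusp1 carried 3, of which those at -143 and -140 overlap within TGACGTCA, a palindrome present in 1.79% of all promoters. Fos carried 2 copies, at -129 and -66. Atf3 carried 1 copy, at -7, and Fosb and Junb carried 1 each. The window held none in Jun and Klf6, and it held a CArG box, the site of serum response factor, in none of the 8, against 1.63% of all promoters. The box was searched only as CC, 6 letters of A or T, and GG. Boxes with another letter, or over 250 bases before the start, were not counted. A match is a run of letters and not a measured binding site.

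The 10 genes differed widely in how much lungs of the same group varied. Spread was taken as the SD of log2 CPM between libraries within groups and ranked among 12230 genes that averaged 5 CPM or more, whose median SD was 0.26. Egr1, a zinc finger factor, had an SD of 0.94 and stood at the 99.8th percentile. Nr4a1, a nuclear receptor without a known natural ligand that is induced by cAMP and calcium, had an SD of 0.84 at the 99.6th percentile. Fosb and Fos, which encode leucine zipper partners of Jun proteins in the AP-1 factor, had SDs of 0.67 and 0.65 at the 99.1th and 98.8th percentiles. Egr1 differed by up to 11.45-fold between lungs of 1 group, Nr4a1 by 8.74-fold, Fos by 7.51-fold and Atf3 by 4.85-fold, each time among the untreated KO lungs of day 2. These folds rested on replicate 1 of that group, a library of letter n. Between the other 2 libraries the folds were 1.2 for Egr1, 1.06 for Nr4a1, 1.14 for Fos and 1.146 for Atf3, values added after the data were seen.

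The rest of the family varied less. Atf3, a stress-induced repressor of the ATF/CREB family, had an SD of 0.48 at the 93.9th percentile. Ier2, a nuclear protein gene of the early response, had 0.41 at the 87.4th percentile, and Junb, an AP-1 subunit, had 0.39 at the 84.5th. Dusp1, a phosphatase that switches off MAP kinases, had 0.36 at the 79.5th percentile. Klf6, a zinc finger factor of the Krüppel-like family, had 0.24 at the 40.7th percentile. Jun, the AP-1 subunit that Fos proteins bind, had 0.17 at the 14.2th percentile. Jun thus varied less between lungs of a group than most of the 12230 genes, with a range of 338 to 591 CPM over all 35 libraries. Within groups and letters together the SD was 0.65 for Egr1, 0.55 for Nr4a1, 0.53 for Fosb, 0.45 for Fos and 0.41 for Ier2, against a median of 0.24.

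**Figure D1:**
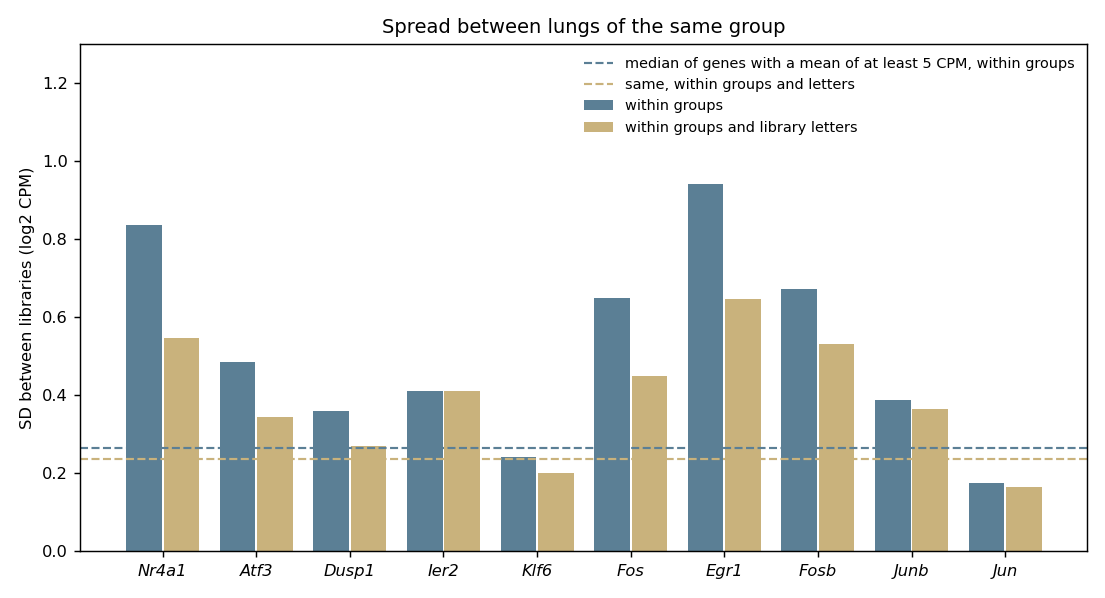
Bars give the SD of log2 CPM between libraries for each gene, within the 12 groups (left bar) and within groups and library letters (right bar), and dashed lines give the median of 12230 genes that averaged 5 CPM or more. Egr1 (0.94) and Nr4a1 (0.84) lie far above the median of 0.26, and Jun (0.17) and Klf6 (0.24) lie below it.

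At day 2, Nr4a1, Dusp1 and Atf3 fell in naphthalene-treated lungs and none of the 10 rose. No gene's treated and untreated lungs were fully apart, against 4.52% of all genes. The other 7, Fos, Fosb, Jun, Junb, Egr1, Ier2 and Klf6, did not pass the test. Nr4a1 had 79.4, 44.9 and 33.1 CPM in treated KO lungs and 58.4, 49.1 and 38.6 CPM in treated C lungs. Untreated KO lungs had 473, 57.5 and 54.1 CPM, and untreated C lungs had 116, 133 and 519.6 CPM. The treated lungs lay close together, 4 of the 6 untreated lungs lay above all of them, and the 2 highest, both of letter n, stood far above the rest. The fitted change, averaged over both genotypes, was a log2 change of -2.14 ± 0.48 (SE, adjusted p = 0.00384, edgeR quasi-likelihood test). That is a 4.42-fold lower level.

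Dusp1 had 259, 217 and 239.6 CPM in treated KO lungs and 250.3, 224 and 303 CPM in treated C lungs of day 2. Untreated KO lungs had 627, 246 and 269.7 CPM, and untreated C lungs had 274, 602 and 655 CPM. Here 3 untreated lungs stood at 602 CPM or more, both of letter n and 1 of letter k, and the other 3 overlapped the treated range. The log2 change was -0.83 ± 0.19 (adjusted p = 0.00409, edgeR). Atf3 had 9.02, 6.98 and 5.62 CPM in treated KO lungs and 13.7, 10.6 and 7.17 CPM in treated C lungs, against 27.98, 6.61 and 5.77 CPM in untreated KO lungs and 16.5, 13.4 and 27.1 CPM in untreated C lungs. The groups overlapped, and the untreated KO lungs of letter k were as low as the treated ones. The log2 change was -0.87 ± 0.26 (adjusted p = 0.0299, edgeR).

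These 3 calls of 10 stand against 9.9% of all genes called in the same comparison, 5.6% higher and 4.3% lower. The median log2 change of the 10 genes was -0.18, against -0.04 over all genes tested. Ier2 had a log2 change of -0.51 ± 0.21 and missed the threshold (adjusted p = 0.127, edgeR). Fos had 30.2 to 79.9 CPM with a median of 40.6 in the 6 treated lungs, against 16.8 to 126 CPM with a median of 28.8 in the 6 untreated lungs. Its log2 change was -0.01 ± 0.35, and the treated lungs lay inside a wide untreated range. The 2 highest untreated lungs, at 126 and 57.5 CPM, were those of letter n. Egr1 likewise had 23.2 to 129 CPM in treated lungs and 23.9 to 273 CPM in untreated lungs, with a log2 change of -0.29 ± 0.52. Klf6 (-0.003), Jun (-0.08), Junb (0.18) and Fosb (0.42) also stayed short of the threshold.

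**Figure D2:**
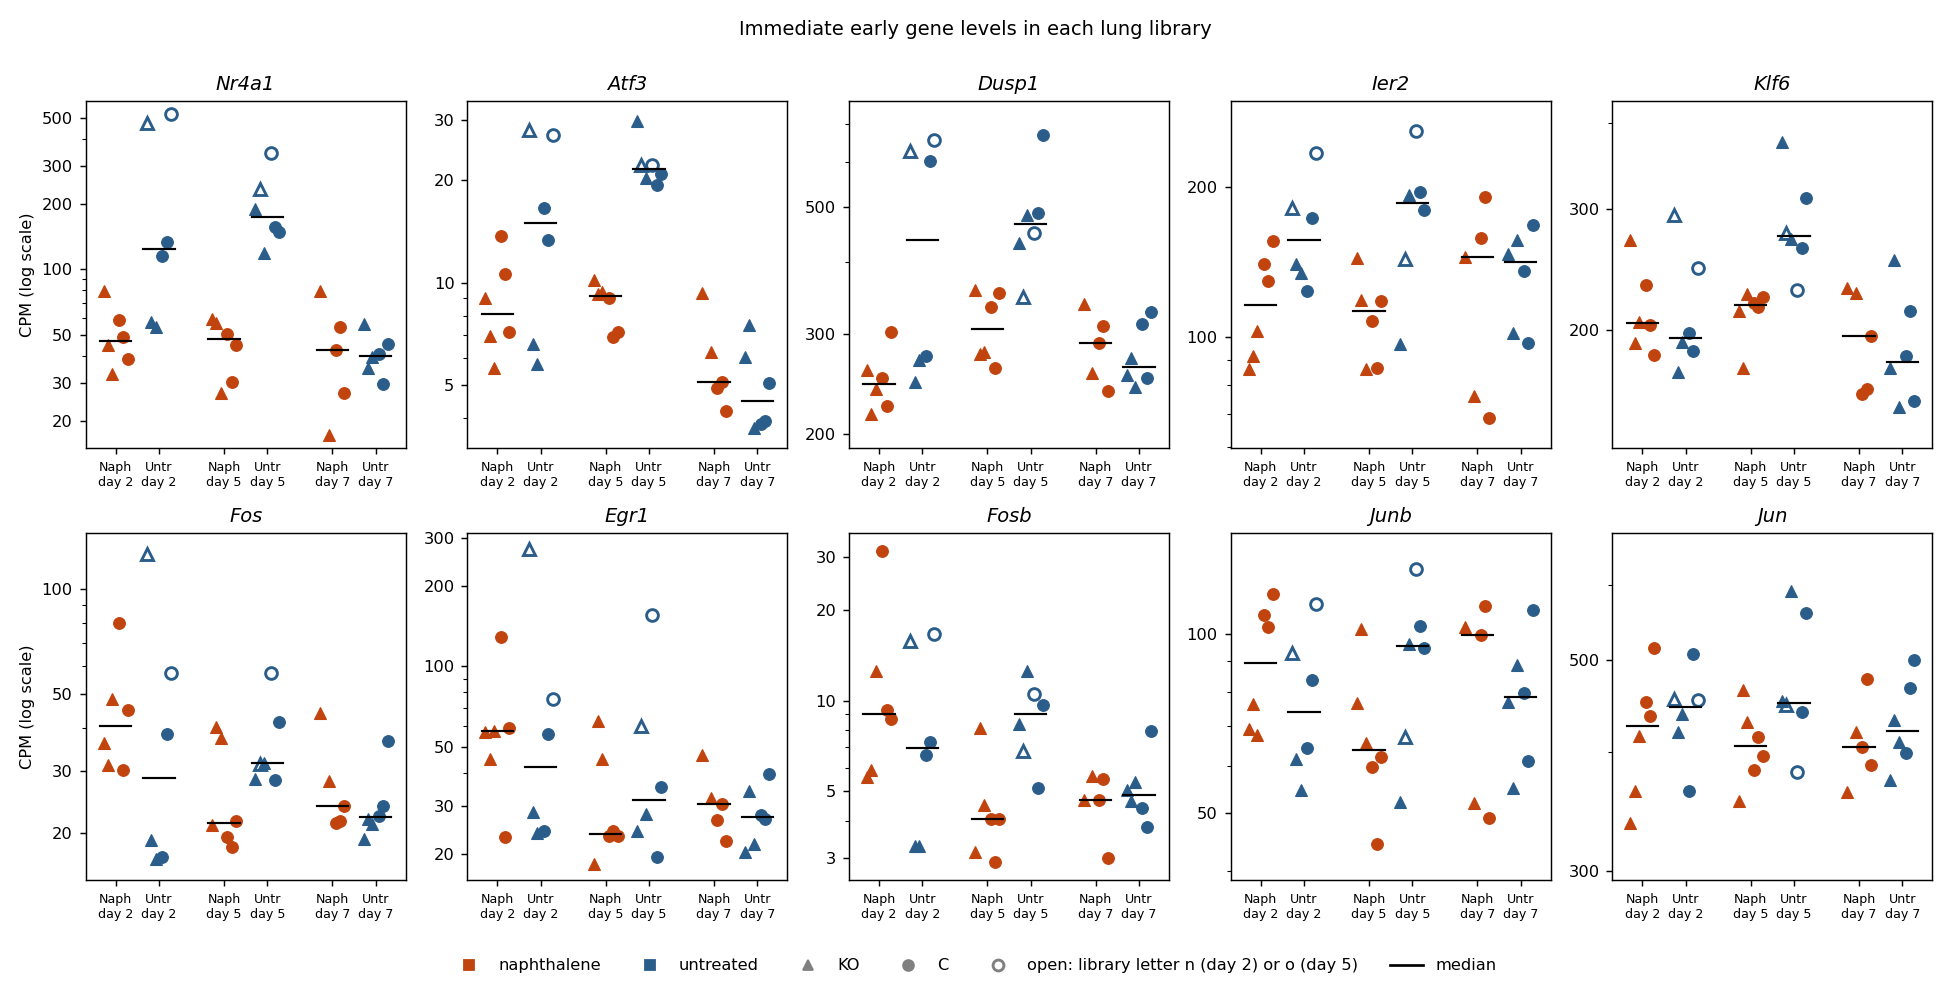
Each point is a library and its height the CPM of that gene on a log scale, for lungs treated with naphthalene (left of each pair) and untreated lungs (right) at days 2, 5 and 7. Triangles are KO and circles C lungs, open symbols are untreated libraries of letter n or o, and bars are medians. Nr4a1 reaches 519.6 and 473 CPM in the letter n libraries and stays at or below 79.4 CPM in every treated library.

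The day 2 result depended on the letters. In untreated lungs of that day, Fos, Fosb, Egr1, Atf3, Nr4a1 and Dusp1 were higher in the 2 libraries of letter n than in the 4 of letter k, in a fit with the group means. These are 6 of 10 genes, against 8.63% of all genes called, 6.22% higher and 2.41% lower, and all 10 genes had a change above 0. Egr1 had 273 and 75.3 CPM under letter n, against 23.9 to 55.8 CPM with a median of 26.4 under letter k. Nr4a1 had 473 and 519.6 CPM under letter n, against 54.1 to 133 CPM under letter k. Atf3 had 27.98 and 27.1 CPM under letter n, against 5.77 to 16.5 CPM under letter k. The letters did not overlap for any of these genes, but the share of all genes without such overlap between 2 and 4 libraries was not computed.

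The log2 changes of letter n over letter k were 2.60 ± 0.41 for Nr4a1 (adjusted p = 0.00168), 2.31 ± 0.54 for Egr1 (0.0181), 2.01 ± 0.36 for Fos (0.00331), 1.75 ± 0.41 for Fosb (0.0162), 1.53 ± 0.27 for Atf3 (0.0024) and 0.94 ± 0.22 for Dusp1 (0.0141), all by edgeR. For Nr4a1, Atf3 and Dusp1 these exceeded in size the treatment changes of the same day, a difference that was not tested. Without replicate 1 of the untreated KO lungs, which leaves a single library of letter n, none of the 6 passed, with changes of 2.06 for Nr4a1, 0.91 for Egr1, 1.05 for Fos, 1.26 for Fosb, 0.85 for Atf3 and 0.58 for Dusp1. Without replicate 2 of the untreated KO lungs, Fosb, Egr1 and Dusp1 missed the threshold (adjusted p = 0.0519, 0.0682 and 0.0504), and without replicate 3 Egr1 did (0.0618). Without replicate 2 of the untreated C lungs Fosb did (0.0504), and without replicate 3 Fosb did (0.0556).

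Marker RNA levels of some cell types differed between the letters. Of the 11 lung tissue markers, Ptprc, the pan-leukocyte gene, was higher under letter n (log2 change 1.08, adjusted p = 0.0122, edgeR) and Col1a1, a fibroblast collagen, was lower (-1.17, adjusted p = 0.00735). Among the others, Sftpc had 5542 to 9129 CPM under letter n, against 11780 to 15540 CPM under letter k, and Ager had 1418 to 1458 CPM against 2356 to 3042 CPM. Hopx overlapped, with 597 to 704 CPM against 523 to 749 CPM. The summed level of the 11 was 18310 to 20970 CPM under letter n, against 28210 to 35510 CPM under letter k. The 10 neutrophil markers summed to 102.3 to 168.5 CPM under letter n and 124.4 to 369 CPM under letter k, with none called. The 12 heat shock genes also had none called. The 15 clock genes, a list added after values were seen, summed to 1314 to 1709 CPM under letter n and 1093 to 1214 CPM under letter k. Mitochondrial transcripts took 0.752% to 1.53% of counts under letter n and 1.12% to 1.41% under letter k, with totals of 10696690 and 17781625 counts under letter n and 13365310 to 19996435 under letter k. The part of these differences in the result was not tested. In whole tissue, fewer cells of a type and less RNA per cell cannot be told apart.

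With a term for the letters in the model, the comparison at day 2 sets treated lungs of letter a against untreated lungs of letter k. Nr4a1 then had a log2 change of -0.73 (adjusted p = 0.127), Dusp1 of -0.44 (0.0758) and Atf3 of -0.18 (0.642), none of them past the threshold. Fos and Fosb rose instead, by 0.97 (adjusted p = 0.0198) and 1.24 (0.0123, edgeR). Leaving out the 4 libraries of letters n and o, a choice made after their values were seen, gave 1.00 for Fos (adjusted p = 0.00544) and 1.26 for Fosb (0.0132). Leaving out replicate 1 of the untreated KO lungs alone gave 0.78 for Fos (adjusted p = 0.0354), 0.99 for Fosb (0.0499) and -0.32 for Atf3 (0.311). Atf3 also missed the threshold without replicate 3 of the treated KO lungs (-0.79), replicate 2 (-0.87) or 3 (-0.76) of the treated C lungs, or replicate 3 of the untreated C lungs (-0.70). Nr4a1 and Dusp1 kept their calls in all 12 such fits, with Nr4a1 between -2.37 and -1.24.

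**Figure D3:**
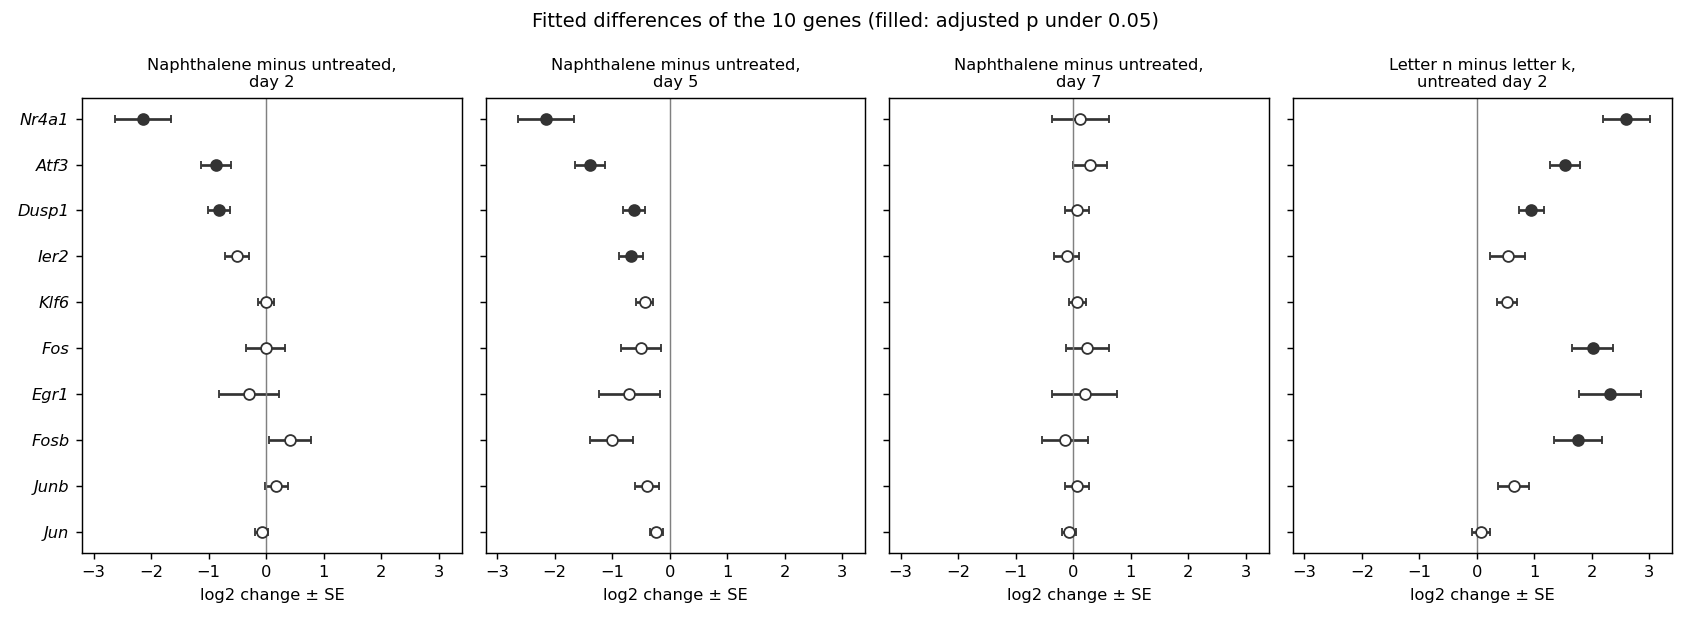
Points are fitted log2 changes with SE as bars, filled where the adjusted p is under 0.05, for naphthalene minus untreated at days 2, 5 and 7 (mean of both genotypes) and for letter n minus letter k in untreated lungs of day 2. Nr4a1 lies at -2.14 and -2.15 at days 2 and 5, at 0.12 at day 7 and at 2.60 between the letters.

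At day 5, Nr4a1, Atf3, Dusp1 and Ier2 fell in treated lungs and all 10 genes had a change below 0. Atf3 had 10.2, 9.28 and 9.35 CPM in treated KO lungs and 8.98, 6.92 and 7.18 CPM in treated C lungs, against 29.7, 22.1 and 20.3 CPM in untreated KO lungs and 22.1, 19.3 and 20.9 CPM in untreated C lungs. Each treated lung lay below each untreated lung, with a wide gap and little spread on either side. The log2 change was -1.38 ± 0.26 (adjusted p = 0.00126, edgeR). Nr4a1 had 59.3, 56.6 and 27.05 CPM in treated KO lungs and 50.6, 30.5 and 44.8 CPM in treated C lungs, against 190.0, 235 and 119 CPM in untreated KO lungs and 344, 157 and 149 CPM in untreated C lungs. These groups did not overlap either, and the highest untreated lungs were the 2 of letter o. The log2 change was -2.15 ± 0.48 (adjusted p = 0.00759, edgeR), a 4.43-fold lower level.

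Dusp1 and Ier2 moved less and overlapped between treatments. Dusp1 had 262 to 358 CPM with a median of 306 in treated lungs, against 347 to 668 CPM with a median of 468 in untreated lungs, a log2 change of -0.61 ± 0.19 (adjusted p = 0.0467, edgeR). Ier2 had 86.4 to 144 CPM with a median of 113 in treated lungs, against 97.0 to 259.7 CPM with a median of 186 in untreated lungs, a log2 change of -0.67 ± 0.21 (adjusted p = 0.0492, edgeR). Klf6 had 176 to 225 CPM in treated lungs, against 229 to 375 CPM in untreated lungs, without overlap, but its log2 change of -0.44 ± 0.14 missed the threshold (adjusted p = 0.0517). Fosb (-1.01 ± 0.37, adjusted p = 0.0842), Egr1 (-0.70), Fos (-0.50), Junb (-0.40) and Jun (-0.23) did not pass.

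The 4 calls of 10 stand against 7.16% of all genes called at day 5, 4.34% higher and 2.82% lower, and the 3 genes without overlap against 2.5% of all genes. The median log2 change of the 10 was -0.64, against -0.02 over all genes tested. The letter terms at day 5 set treated lungs of letter b against untreated lungs of letter f. Treatment and letter thus still cannot be told apart in that fit. In it, Atf3 stayed at -1.37 (adjusted p = 0.0003), Nr4a1 at -1.86 (0.00302) and Dusp1 at -0.70 (0.0297). Ier2 lost its call (-0.59, adjusted p = 0.255). Atf3 and Nr4a1 passed in all 12 fits that left out a library. Dusp1 passed in 1 of the 12, the fit without replicate 1 of the treated KO lungs, and lay between -0.68 and -0.51 in the other 11. Ier2 passed in 3 of the 12 and lay between -0.72 and -0.53 in the 9 that lost the call. Klf6 passed without replicate 1 of the treated KO lungs (adjusted p = 0.0372) or replicate 3 of the untreated KO lungs (0.0449). The fit without replicate 1 of the treated KO lungs called 4073 of all genes, against 1476 with all libraries. 

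Other gene groups moved with treatment on these days. Of 10 glucocorticoid targets, 6 rose in treated lungs at day 2 (5.6% of all genes were higher) and 4 at day 5 (4.34%). Their summed level was 1836 to 2557 CPM in treated and 1420 to 2370 CPM in untreated lungs of day 2, and 1658 to 2710 CPM in treated and 1066 to 2550 CPM in untreated lungs of day 5. Of 10 neutrophil markers, 6 rose at day 2, with a summed level of 142.6 to 595.5 CPM in treated lungs, against 102.3 to 369 CPM in untreated lungs. Il1r2, a decoy receptor for interleukin 1, had a log2 change of 2.75 (adjusted p = 3.7e-05, edgeR), S100a9, a calcium-binding protein gene of neutrophils, 1.26 (0.0385) and Csf3r, the receptor of the growth factor G-CSF, 0.53 (0.207).

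Of 8 red cell markers, 5 fell at day 2 (4.3% of all genes were lower), all 8 had a change below 0, and the median log2 change was -1.27. Their summed level was 1708 to 3032 CPM in treated lungs and 2972 to 5136 CPM in untreated lungs. The haemoglobin genes Hbb-bs and Hba-a1 had log2 changes of -0.75 (adjusted p = 0.0422, edgeR) and -0.78 (0.153). At day 5, 3 of the 8 fell (2.82% of all genes were lower). Mitochondrial transcripts took 1.63% to 2.57% of counts in treated lungs of day 2, against 0.752% to 1.53% in untreated lungs. The part of all these differences in the changes of the 10 genes was not tested.

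At day 7, the only day on which treated and untreated libraries share a letter, none of the 10 genes passed the test. edgeR called 0 of 10, with 0 at an unadjusted p under 0.05, and DESeq2 called 0, against 0.374% of all genes called (0.335% higher, 0.0388% lower). Nr4a1 had 79.4 and 17.3 CPM in treated KO lungs and 42.6, 54.3 and 26.96 CPM in treated C lungs, against 55.8, 35.3 and 39.3 CPM in untreated KO lungs and 41.0, 29.7 and 45.5 CPM in untreated C lungs. The groups overlapped throughout, and both the highest and the lowest values were in treated KO lungs. The log2 change was 0.12 ± 0.50. Atf3 had 4.19 to 9.33 CPM in treated lungs and 3.75 to 7.50 CPM in untreated lungs, a log2 change of 0.29 ± 0.29. All 10 genes overlapped between treatments, where 1.12% of all genes did not. The changes of the 10 genes lay between -0.14 for Fosb and 0.29 for Atf3, with a median of 0.07.

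The difference of the treatment effect between days did not pass for any of the 10. edgeR called 0 of 10 for day 5 minus day 2 (0.67% of all genes, 0.451% higher and 0.218% lower; 2 at an unadjusted p under 0.05, DESeq2 0), 0 for day 7 minus day 2 (1.01%, 0.461% higher and 0.553% lower; 3 unadjusted, DESeq2 0) and 0 for day 7 minus day 5 (0% of all genes; 4 unadjusted, DESeq2 0). For Nr4a1 the effect at day 7 exceeded that at day 5 by 2.27 ± 0.68 and for Atf3 by 1.67 ± 0.39 on the log2 scale, with adjusted p of 0.662 and 0.485. Without replicate 1 of the untreated KO lungs of day 2, the effect at day 5 lay below that at day 2 for Fosb (-1.9997, adjusted p = 0.022), Atf3 (-1.06, 0.0341) and Fos (-1.28, 0.0465). Without replicate 1 of the untreated C lungs of day 2, Dusp1 differed between days 7 and 2 (1.04, adjusted p = 0.0415). Over the 3 days together, Nr4a1 (-1.39), Atf3 (-0.65), Dusp1 (-0.46) and Ier2 (-0.43) were lower in treated lungs, 4 of 10 against 12.2% of all genes, 7.23% higher and 4.95% lower. Ier2 lost that call without replicate 2 of the treated KO lungs of day 7 (-0.36, adjusted p = 0.0731), with the letter terms (-0.34, 0.127) and without the 4 libraries of letters n and o (-0.33, 0.1205). With the letter terms the changes over 3 days were -0.82 for Nr4a1 (adjusted p = 0.00357), -0.42 for Atf3 (0.0238) and -0.36 for Dusp1 (0.0139). Those terms do not part treatment from letter at days 2 and 5. A joint test of the 6 day and genotype combinations called Atf3, Nr4a1 and Dusp1 (adjusted p = 0.0045, 0.00711 and 0.0212), against 6.16% of all genes.

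Set beside the spread, the treatment effect at day 2 amounted to -2.56 within-group SDs for Nr4a1, -2.31 for Dusp1 and -1.80 for Atf3, and to -0.01 for Fos and -0.31 for Egr1. These SDs pool all 12 groups, and the lungs compared at day 2 differed from them. Untreated lungs of day 2 had within-group SDs of 1.52 for Nr4a1, 0.72 for Dusp1 and 0.96 for Atf3. In treated lungs of that day they were 0.50, 0.18 and 0.41. At day 5 it was -2.85 SDs for Atf3, -2.57 for Nr4a1, -1.82 for Klf6, -1.72 for Dusp1 and -1.63 for Ier2. At day 7 it lay between -0.45 SDs for Jun and 0.60 SDs for Atf3. At day 5, Klf6 (-0.44) and Jun (-0.23) thus had small log2 changes that exceeded a small spread, at -1.82 and -1.33 SDs. Egr1 (-0.70 at day 5) had a larger change inside a spread that exceeded it.

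The untreated lungs themselves differed between days. Atf3, Nr4a1, Dusp1 and Klf6 were lower in untreated lungs of day 7 than of day 5. Atf3 had 5.77 to 27.98 CPM in untreated lungs of day 2, 19.3 to 29.7 CPM at day 5 and 3.75 to 7.50 CPM at day 7. Nr4a1 had 54.1 to 519.6 CPM at day 2, 119 to 344 CPM at day 5 and 29.7 to 55.8 CPM at day 7. For both genes the untreated lungs of day 7 did not overlap those of day 5, and the share of all genes without such overlap was not computed. Relative to day 5, the log2 changes at day 7 were -2.17 ± 0.27 for Atf3 (adjusted p = 8.91e-06), -2.27 ± 0.48 for Nr4a1 (0.00217), -0.79 ± 0.19 for Dusp1 (0.00465) and -0.60 ± 0.14 for Klf6 (0.0034), by edgeR. These 4 of 10 stand against 21.6% of all genes called, 10.2% higher and 11.4% lower.

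Relative to day 2, Nr4a1 (-2.44), Atf3 (-1.68) and Dusp1 (-0.68) were lower in untreated lungs of day 7, 3 of 10 against 13.8% of all genes, 6.06% higher and 7.7% lower. Atf3 and Nr4a1 passed in all 12 fits that left out a library, for each of these comparisons with day 7. With the letter terms, which set day 7 against letter k of day 2, Nr4a1 had -1.03 (adjusted p = 0.0336), Atf3 -0.98 (0.00282) and Dusp1 -0.29 (0.264), so that Dusp1 lost its call. Without the 4 libraries of letters n and o the values were -1.04 for Nr4a1 (adjusted p = 0.0292), -0.97 for Atf3 (0.00151) and -0.30 for Dusp1 (0.239). Dusp1 also lost its call relative to day 2 without replicate 1 of the untreated KO lungs of day 2 (-0.40), replicate 3 of the untreated C lungs of day 2 (-0.57) or replicate 2 of the untreated C lungs of day 7 (-0.61). Fos (-0.91, adjusted p = 0.0815) passed without replicate 2 (-1.11) or 3 (-1.12) of the untreated KO lungs of day 2 or replicate 1 of the untreated C lungs (-1.08). Egr1 (-1.40, adjusted p = 0.0805) passed without replicate 2 (-1.63) or 3 (-1.64) of the untreated KO lungs, and with DESeq2 (-1.39, adjusted p = 0.0453). Each of these left-out libraries is of letter k. With the letter terms Fos had 0.07 (adjusted p = 0.895) and Egr1 -0.25 (0.739), and without the 4 libraries of letters n and o 0.09 and -0.21. Between untreated lungs of days 5 and 2, edgeR called 0 of 10 (0.476% of all genes, 0.0971% higher and 0.379% lower; 1 at an unadjusted p under 0.05, DESeq2 0). Without replicate 1 of the untreated KO lungs of day 2, Atf3 (1.04, adjusted p = 0.00373) and Klf6 (0.55, 0.0449) were higher at day 5. Day and letter cannot be told apart here, and 7 of 8 red cell markers were higher at day 7 than at day 2 (6.06% of all genes were), whose part in the result was not tested. These comparisons share their untreated lungs with the treatment effects above.

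The untreated lungs of day 5 also held 2 letters, o and f. edgeR called 0 of 10 for letter o minus letter f (2.05% of all genes, 1% higher and 1.04% lower; 2 at an unadjusted p under 0.05). Egr1 had 155 and 60.1 CPM under letter o, against 19.5 to 35.5 CPM with a median of 26.2 under letter f. The value of 155 CPM was that of replicate 1 of the untreated C lungs. The letters did not overlap, a trait whose share over all genes was not computed. The log2 change was 1.89 ± 0.52 (adjusted p = 0.0574). Atf3 had 22.1 and 22.1 CPM under letter o and 19.3 to 29.7 CPM under letter f, a log2 change of -0.02. The letters differed in 7 of 12 heat shock genes, all lower under letter o, against 1.04% of all genes. Over all genes, 422 were called, and 1 without replicate 1 of the untreated C lungs, the library with P2ry12.

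Genotype made no difference that passed the test. edgeR called 0 of 10 for KO minus C in treated lungs (0 at an unadjusted p under 0.05), 0 in untreated lungs (2 unadjusted, Junb and Dusp1) and 0 for the genotype difference of the treatment effect (0 unadjusted). DESeq2 called 0 in each, and edgeR called 0% of all genes in each. The KO minus C changes over 3 days lay between -0.26 for Ier2 and 0.34 for Fos in treated lungs, and between -0.37 for Junb and 0.11 for Klf6 in untreated lungs. The genotype difference of the treatment effect was 0.34 ± 0.55 for Nr4a1 and 0.13 ± 0.31 for Atf3 on the log2 scale.

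Within single genotypes the calls were fewer. In KO lungs edgeR called 0 of 10 at days 2, 5 and 7 against 2.74%, 1.32% and 0.0728% of all genes, with 4, 3 and 0 at an unadjusted p under 0.05, and DESeq2 called 0, 1 and 0. Of all genes, 1.99% were called higher and 0.747% lower at day 2, 1.14% and 0.18% at day 5, and 0.0631% and 0.00971% at day 7 in KO lungs. Nr4a1 had log2 changes of -1.89 ± 0.68 at day 2 and -1.93 ± 0.68 at day 5 in KO lungs, against -2.40 ± 0.69 and -2.37 ± 0.69 in C lungs. Atf3 had -1.32 ± 0.37 at day 5 in KO lungs and -1.43 ± 0.37 in C lungs. In C lungs edgeR called Nr4a1 (adjusted p = 0.0478) and Dusp1 (-0.98, adjusted p = 0.0343) at day 2, 2 of 10 against 3.76% of all genes, 2.57% higher and 1.18% lower. It called Atf3 at day 5 (adjusted p = 0.0381), 1 of 10 against 2.39%, 1.1% higher and 1.29% lower. At day 7 it called 0 (0.0388%, 0.0291% higher and 0.00971% lower, 0 unadjusted, DESeq2 0). In C lungs 3 genes at day 2 and 7 at day 5 had an unadjusted p under 0.05, and DESeq2 called 2 and 4. The median log2 change of the 10 at day 5 was -1.06 in C lungs and -0.39 in KO lungs, a difference not tested at that day alone.

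The C calls were lost in several fits that left out a library. Nr4a1 at day 2 lost its call without replicate 1, 2 or 3 of the treated C lungs (-2.55, -2.40 and -2.25) or replicate 3 of the untreated C lungs (-1.35). Dusp1 lost it without replicate 1 (-0.95) or 2 (-0.88) of the treated C lungs or replicate 2 (-0.84) or 3 (-0.76) of the untreated C lungs. Atf3 at day 5 lost it without replicate 1, 2 or 3 of the treated C lungs (-1.54, -1.36 and -1.39) or replicate 1 (-1.39) or 2 (-1.47) of the untreated C lungs. Without replicate 3 of the untreated C lungs of day 5, Junb (-1.05, adjusted p = 0.0265), Ier2 (-1.11, 0.0242) and Nr4a1 (-2.56, 0.0229) passed as well. Calls over all genes moved too. In C lungs at day 5 they numbered 492 with all libraries, 3544 without that replicate and 23 without replicate 1 of the untreated C lungs.

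Lungs of the same group that were high in 1 of the genes were often high in particular others. Each library's log2 CPM was taken as a deviation from its group mean, and all 45 pairs of the 10 genes were correlated over the 35 libraries, with permutation within groups (100000 draws) and adjustment over the 45. The pairs with a positive correlation numbered 40, and 15 pairs passed by both measures. The shares among pairs of all genes were not computed, so these counts do not show a trait particular to the 10. For Fos with Egr1, Pearson's r was 0.90 and Spearman's rho 0.83 (permutation p = 1e-05, the smallest these draws can give, and 3e-05; adjusted 0.00045 for both). For Fos with Fosb, r was 0.83 and rho 0.75 (permutation p = 0.00025 and 0.00043, adjusted 0.00281 and 0.00484).

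Junb went with Ier2, with r = 0.93 and rho = 0.91 (permutation p = 2e-05 for both, adjusted 0.00045). Atf3 went with Nr4a1, with r = 0.81 and rho = 0.76 (permutation p = 0.00012 and 2e-05, adjusted 0.0018 and 0.00045), and with Klf6, with r = 0.69 and rho = 0.54 (permutation p = 0.00201 and 0.0088, adjusted 0.01 and 0.0305). The 10 other pairs that passed joined these genes to one another or to Dusp1. Fosb went with Egr1 (r = 0.73 and rho = 0.59), and Fos with Junb (0.48 and 0.52). Junb also went with Fosb (0.54 and 0.54), Egr1 (0.43 and 0.47), Nr4a1 (0.64 and 0.65) and Dusp1 (0.54 and 0.55). Ier2 went with Fosb (0.43 and 0.47), Nr4a1 (0.57 and 0.61) and Dusp1 (0.52 and 0.56), and Egr1 with Nr4a1 (0.64 and 0.51). Their adjusted permutation p lay between 0.00984 and 0.0426. Fos with Nr4a1 did not pass (r = 0.68 and rho = 0.44, permutation p = 0.0188 and 0.0638, adjusted 0.0514 and 0.112). Junb with Klf6 had r = -0.30 and rho = -0.31 (permutation p = 0.135 and 0.116, adjusted 0.179 and 0.168), and Ier2 with Klf6 had r = -0.34 and rho = -0.33 (permutation p = 0.0555 and 0.0898, adjusted 0.0892 and 0.139).

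Library letters bear on these relations, and r is given again within groups and letters. It was 0.92 for Fos with Egr1, 0.70 for Fos with Fosb, 0.95 for Junb with Ier2, 0.64 for Atf3 with Nr4a1 and 0.56 for Atf3 with Klf6. It was 0.21 for Fos with Nr4a1, 0.19 for Egr1 with Nr4a1, 0.25 for Fos with Junb and 0.20 for Junb with Egr1. For Klf6 it was -0.63 with Junb and -0.64 with Ier2, farther from 0 than within groups alone. Without the 2 libraries farthest from the median of the gene named first, r was 0.84 for Fos with Egr1, 0.76 for Fos with Fosb, 0.92 for Junb with Ier2, 0.69 for Atf3 with Nr4a1 and 0.62 for Atf3 with Klf6. The 2 farthest libraries for Fos were replicates 1 and 3 of the untreated KO lungs of day 2, at 1.87 above and -1.03 relative to the group mean on the log2 scale. Without the 4 libraries of letters n and o, r was 0.90 for Fos with Egr1 and 0.93 for Junb with Ier2. The libraries also share depth and tissue makeup, which the relations do not remove.

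**Figure D4:**
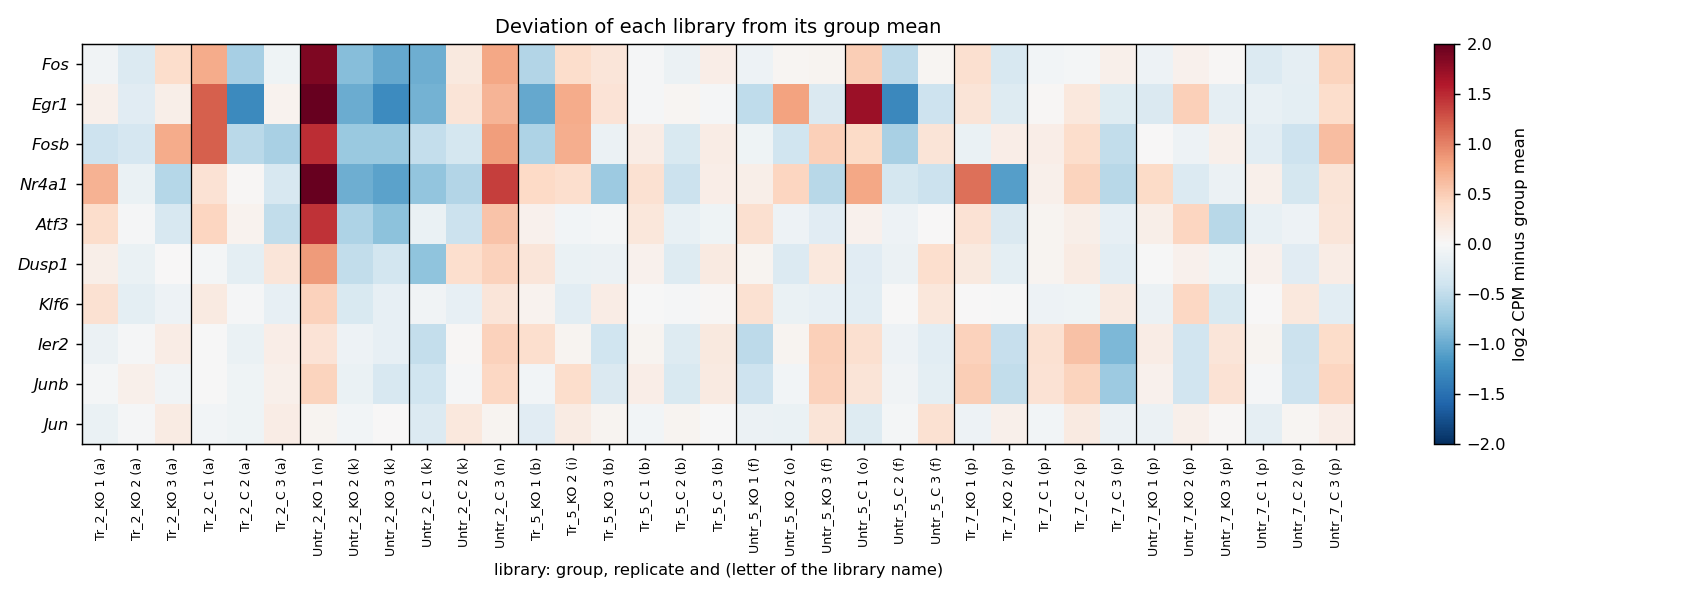
Each cell is the log2 CPM of a gene in a library minus the mean of its group, with rows for the 10 genes, columns for the 35 libraries (letter in brackets) and a colour scale that ends at -2 and 2. Replicate 1 of the untreated KO lungs of day 2 is high in most genes, Fos and Egr1 share their pattern (r = 0.90) and so do Junb and Ier2 (r = 0.93).

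Outside the 10, the genes whose deviations were most like those of Fos over the 35 libraries included known early response genes. The highest r was 0.86 for Ccn1, a matrix protein gene of the early response, followed by Btg2, an antiproliferative gene, at 0.85 and Egr3, a relative of Egr1, at 0.76. Then came Gm2682 at 0.74, Slc28a2b at 0.72, Ppp1r15a at 0.71, D630024D03Rik at 0.70, Bcl11b and Sik1 at 0.69 and Thnsl1 at 0.68. Of these 10, Ccn1, Btg2, Egr3, Ppp1r15a and Sik1 belong to a list of 48 other rapidly induced genes. Within groups and letters r was 0.71 for Ccn1 and 0.75 for Btg2 but 0.53 for Egr3 and 0.20 for Sik1, and Acot6 led at 0.79. These values are given as a description of the highest among the genes tested, with no test.

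Other genes of the early response and factors upstream of it were described from lists. Of the 48 other rapidly induced genes, 46 were tested, and at day 2 after naphthalene 2 were higher and 6 lower, with a median log2 change of -0.14, beside 5.6% higher and 4.3% lower of all genes. Nr4a3, a close relative of Nr4a1, fell with -1.78 ± 0.28 (adjusted p = 3.14e-05, edgeR). Ptgs2, the inducible cyclooxygenase, rose with 1.24 ± 0.28 (adjusted p = 0.00303). Of the 2 most abundant members, Rhob fell with -0.48 (adjusted p = 0.03) and Klf2 had -0.56 (adjusted p = 0.0949). The remaining relative Nr4a2, named after its values were seen, fell with -1.64 (adjusted p = 0.00162).

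At day 5 none of the 46 rose and 10 fell, with a median log2 change of -0.29, beside 4.34% higher and 2.82% lower of all genes. Nr4a3 (-1.40 ± 0.27, adjusted p = 0.00135), Klf2 (-0.81, adjusted p = 0.0202) and Nr4a2 (-1.48, adjusted p = 0.00864) fell, Rhob had -0.10 and Gadd45g had 0.46 (adjusted p = 0.153). At day 7 none of the 46 was called by edgeR, where 0.374% of all genes were. Among 21 upstream factors and kinases, 1 rose and 2 fell at day 2, beside the same shares of all genes as above. Crem, which encodes repressors and activators at cAMP response elements, fell with -0.76 ± 0.15 (adjusted p = 0.00107), and Atf4 fell with -0.40 (0.0152). Rps6ka1, a kinase downstream of ERK, rose with 0.42 (adjusted p = 0.0308), and Mapk3 had -0.10 (0.758). At day 5 Crem fell again, with -0.56 (adjusted p = 0.0254), as the sole call of the 21, while Elk1, an ERK target that partners serum response factor, had 0.36 (0.193), Mapk3 -0.18 (0.439) and Atf4 -0.33 (0.0588). Between letters n and k, 12 of the 46 rapidly induced genes were higher under letter n and none lower, beside 6.22% higher and 2.41% lower of all genes.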

How the data were processed

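The authors deposited raw counts per gene, 1 value for each Ensembl mouse gene and library, from whole-lung RNA extracted with Trizol and made into libraries with a Watchmaker Genomics mRNA kit, per the labels' protocols. The submitters' processing notes name the build GRCm39 and the tool DESeq2 without their roles. The aligner, the counter and its strand setting were not given in the sources used here, so reads of overlapping or antisense genes cannot be told apart. The table has 57186 genes, of which 39417 have a read. No library was left out.

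The counts were tested with edgeR 4.0.16 (R 4.3.3, limma 3.58.1), with DESeq2 1.42.0 as an alternative. The filterByExpr function of edgeR, applied to the 12 groups, chose the genes to test, and TMM factors scaled the libraries. A robust quasi-likelihood fit of the 12 group means over all 35 libraries gave each comparison as a contrast, with a two-sided test, Benjamini-Hochberg adjustment over all 20606 genes and a threshold of 0.05. A comparison of library letters added terms for letters n, o and i. CPM and log2 CPM (prior count 2) were computed from the counts with the TMM factors. Scripts were tested on simulated data.

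The 10 genes, the other lists and the tests were chosen with earlier results of these data known. All 10 genes are named. Of other lists described in the treatment comparisons, the text names the gene of lowest p above and below 0 and the 2 of highest CPM, and it names 10 genes with the highest r to Fos. Lists given as counts name none, and a gene that the rule would name is not reported here. Outside this rule, and after their values were seen, it names Nr4a2, P2ry12, Acot6, Sftpc, Ager and the markers in the letter comparisons (Ptprc, Col1a1, Hopx, Hspa1a, Hspa1b, Dbp and Bmal1). The other macrophage and microglia markers beside P2ry12 were named likewise. The alternatives were other scalings, no filter, a replicate block, letter terms, fits of the compared groups alone, DESeq2 and leaving out libraries. Promoters came from RefSeq in build GRCm38.p6, another build than that of the counts, matched by symbol.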

Additional observations from a re-analysis of the deposited data

How the results depend on the processing

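Over the settings other than leaving out single libraries, 1448 values of single genes kept their direction and side of the threshold, 78 gained a call, 27 lost it and 67 changed sign. In 65 of the 67 neither value passed the threshold, 21 of them with letter terms, 22 without the 4 libraries of letters n and o, 8 with library totals, 5 with a replicate block, 3 with no filter and 2 each with DESeq2, RLE scaling and the compared groups alone. Egr1 at day 2 (-0.29 as reported) had 0.86 and 0.91 with letter terms and without the 4 libraries, and at day 5 (-0.70) 0.01 and 0.24. Over 3 days Egr1 (-0.27) had 0.36 and 0.45, and Fos (-0.09) 0.26 and 0.30. In KO lungs at day 2 Egr1 (-1.03) had 0.56 and 1.01, and Fos (-0.48) had 0.77 and 1.09. For the effect of day 7 minus 2, Egr1 (0.49) had -0.66 and -0.72, and Fos (0.25) -0.73 and -0.76. For untreated day 5 minus 2, Fos (-0.32) had 0.51 and 0.53. Leaving out single libraries changed the sign of 194 more values with neither past the threshold. The 2 changes with a call were both of Fos at day 2, -0.01 as reported, 0.97 with letter terms and 1.00 without the 4 libraries of letters n and o, a set chosen after seeing the data. It also reversed without replicate 1 of the untreated KO lungs of day 2, at 0.78, and lay at -0.24 without replicate 1 of the treated C lungs, the lowest of the left-out values. The cause was not tested.

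With no filter on low counts, which changes the genes that are tested and the spread they share, the number of the 10 genes called was 7 at day 5, 4 in KO lungs at day 2, 2 in KO lungs at day 5 and 8 in C lungs at day 5. It was 1, 3 and 3 for the differences of the effect (day 5 minus 2, 7 minus 2, 7 minus 5), 1, 6 and 7 for the same days in untreated lungs, 8 in the joint test and 2 for letter o minus f. Calls over all genes rose too with no filter, among 39417 genes with a read. They were 2696 at day 5 (1476 as reported), 635 and 2118 in KO and C lungs at day 5 (272 and 492). They were 603 and 233 for the effect of day 7 minus 2 and 7 minus 5 (209 and 0), 3390 in the joint test (1270) and 989 for letter o minus f (422). With letter terms the number of the 10 genes called was 3 in C lungs at day 5, 3 for the effect of day 5 minus 2 and 2 for untreated day 5 minus 2. For untreated day 5 minus 2, 676 of all genes were called (98 as reported). Without the 4 libraries the number of the 10 was 1 in KO lungs at day 5, 0 in C lungs at day 2, 4 and 1 for the effect of day 5 minus 2 and 7 minus 5, and 2 for untreated day 5 minus 2. For the effect of day 5 minus 2, 976 of all genes were called (138 as reported). With the compared groups alone the number of the 10 was 1 in KO lungs at day 5, 0 in C lungs at day 2, 2 in C lungs at day 5, 1 for the effect of day 7 minus 5 and 1 for letter o minus f. Over all genes these fits called 24 in KO lungs and 26 in C lungs at day 5, 606 in C lungs at day 2 and 83 for letter o minus f. DESeq2 called 1 in KO lungs and 4 in C lungs at day 5. Library totals gave 5 for untreated day 7 minus 2 and 1 for letter o minus f. A replicate block gave 1 in KO lungs at day 5 and changed no other count by over 1.5 times. The labels do not say whether the replicate numbers pair the libraries, and the main fit did not pair them. Of 17 same-numbered pairs of treated and untreated lungs, 3 had a correlation of deviations above 0.1, over a range of -0.305 to 0.156. Deviations from means of 2 or 3 libraries cannot settle whether a pairing exists.

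Leaving out single libraries gave 2 to 4 calls at day 2, 2 to 5 at day 5, 0 to 2 and 0 to 4 in C lungs at days 2 and 5, 3 to 4 over all days, 0 to 3 and 0 to 1 for the effect of day 5 minus 2 and 7 minus 2, 0 to 2 and 2 to 5 for untreated day 5 minus 2 and 7 minus 2, 2 to 4 in the joint test and 0 to 6 for letter n minus k. Counts over all genes moved more. At day 5, 1476 were called, 354 with letter terms, 2696 with no filter and 556 to 4073 without single libraries. Over the other settings the lowest and highest counts were 44 and 209 at day 7 (77 as reported), 261 and 1451, 24 and 635, and 10 and 161 in KO lungs at days 2, 5 and 7 (565, 272 and 15), and 26 and 2118, and 3 and 45 in C lungs at days 5 and 7 (492 and 8). They were 89 and 976, 170 and 603, and 0 and 233 for the effect of day 5 minus 2, 7 minus 2 and 7 minus 5 (138, 209 and 0). They were 0 and 676, and 1430 and 3831 for untreated day 5 minus 2 and 7 minus 2 (98 and 2835), 1248 and 3390 in the joint test (1270) and 83 and 989 for letter o minus f (422). For letter n minus k, 1779 genes were called, and 148 without replicate 2 of the untreated C lungs. With no filter, the genotype comparisons called 103 genes in treated lungs, 76 in untreated lungs and 21 for the difference of the effect, against 0 as reported. Each value rests on 45 reads or more and each group on 2 or 3 libraries.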

Other observations

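Heat shock genes and clock genes moved with letters o and f in untreated lungs of day 5, where edgeR called none of the 10 early response genes. Of 12 heat shock genes, 7 were lower under letter o. Hspa1a, an inducible chaperone, had 9.61 to 9.97 CPM under letter o, against 41.4 to 77.5 CPM under letter f, and Hspa1b had 12.3 to 14.1 CPM against 63.5 to 121.5 CPM. Of 15 clock genes, a list added after values were seen, 7 were higher and 2 lower under letter o. Of all genes, 1% were higher and 1.04% lower, and the 422 calls behind these shares became 1 without replicate 1 of the untreated C lungs. Dbp, an output gene of the circadian clock, had 69.7 to 75.9 CPM under letter o, against 9.24 to 15.6 CPM under letter f. Bmal1, a core activator of the clock, had 3.84 to 5.60 CPM under letter o, against 21.9 to 29.02 CPM under letter f. Levels of Bmal1 and Dbp were also set side by side for letters n and k in untreated lungs of day 2. In that comparison 6 of the 10 early response genes were called. There Bmal1 had at most 12.57 CPM under letter n, against at least 16.13 CPM under letter k. Dbp overlapped, with 22.92 to 23.73 CPM under letter n and 14.74 to 24.15 CPM under letter k. The heat shock and clock members were named after their values were seen, and whether they bear on the early response genes was not tested.

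Of 10 glucocorticoid targets, 6 rose in treated lungs at day 2 and 4 at day 5, and none fell on either day, where 5.6% and 4.34% of all genes rose. Fkbp5, a chaperone gene with glucocorticoid response elements, had log2 changes of 2.15 ± 0.33 at day 2 (adjusted p = 3.71e-05, edgeR) and 1.62 ± 0.33 at day 5 (0.00291). Zbtb16, the member with the smallest p at day 5, had 2.27 ± 0.38 (adjusted p = 0.000435). The 2 most abundant members did not pass at either day, with Tsc22d3 at -0.01 and 0.15 and Sgk1 at -0.20 and -0.40.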
